A study of Homo sapiens with 2 samples.

Results

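The regions described here are the listed TCF12 ChIP-seq peaks on 5 chromosome arms that are often lost in hepatocellular carcinoma (HCC), namely 4q, 8p, 13q, 16q and 17p. A peak belonged to an arm when its summit lay, on the human build hg19, above 54.7 Mb on chromosome 4, below 41.8 Mb on chromosome 8, above 21 Mb on chromosome 13, above 46.4 Mb on chromosome 16 or below 20.2 Mb on chromosome 17. Of the 64251 listed peaks, 4920 (7.66%) met this rule, with 1220 on 4q, 760 on 8p, 1173 on 13q, 811 on 16q and 956 on 17p. Together these arms spanned 336 Mb, counted from the boundary of the rule to the outermost listed summit. The material was the human HCC cell line Hep3B, for which the labels give no treatment and no engineered change. Chromatin precipitated with a TCF12 antibody gave 1 ChIP library, and DNA taken without antibody gave 1 input library. The ChIP library had 10254561 tags after filtering and the input had 8862145. Without replicates no difference between arms could be tested, and the intervals below are exact 95% intervals for counting error only, which treat peaks as independent.

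TCF12 is a basic helix-loop-helix transcription factor of the E protein family, and it binds DNA as a dimer at short E-box sequences. In HCC, loss of a chromosome arm removes a copy of every gene on it, and the arms considered here carry known tumor suppressor genes such as RB1 on 13q and CDH1 on 16q. In a ChIP-seq library, reads come from bound and from unbound DNA, so the number of reads over an arm depends on how much DNA of that arm the cells hold as well as on binding. The DNA content of the arms was not measured here, and binding and DNA content cannot be told apart in a single peak table.

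The 5 arms did not behave as a group. The long arm of chromosome 4 was the sparsest of all 39 autosomal arms, with 8.95 peaks per Mb (8.45 to 9.47). On 13q there were 12.5 peaks per Mb (11.8 to 13.2), the fourth lowest density. The arms 8p and 16q lay close together in the lower part of the order, at 18.2 (16.9 to 19.5) and 18.5 (17.2 to 19.8) peaks per Mb, and their intervals overlapped. In contrast, 17p held 47.4 peaks per Mb (44.4 to 50.5), and only 20q and 7p were denser. The 34 other autosomal arms ranged from 10.6 on 18q to 52.5 on 7p, with a median of 24.4 peaks per Mb. Thus 4q and 13q were among the sparsest arms of the list and 17p was among the densest.

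**Figure D1:**
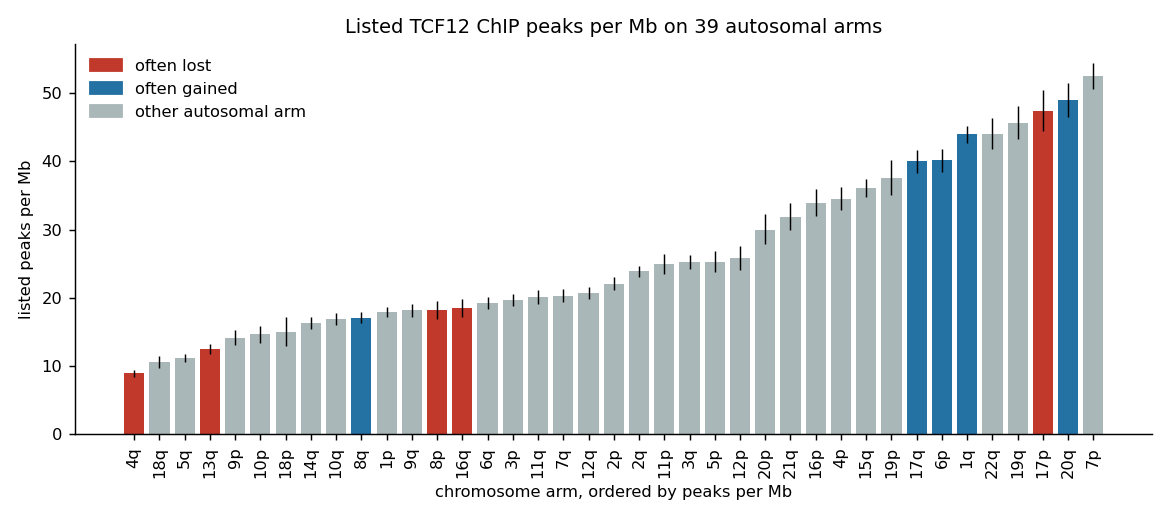
Bars give the listed peaks per Mb on each of the 39 autosomal arms in ascending order, and lines give exact 95% Poisson intervals. The often-lost arms (red) stand at both ends of the order, from 8.95 peaks per Mb on 4q to 47.4 on 17p.

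Each arm was then set against the 34 other autosomal arms pooled (24.8 peaks per Mb). The ratio of densities was 0.361 for 4q (0.341 to 0.382), 0.503 for 13q (0.474 to 0.533), 0.734 for 8p (0.683 to 0.789), 0.746 for 16q (0.695 to 0.799) and 1.91 for 17p (1.79 to 2.04). Against 5 arms often gained in HCC (1q, 6p, 8q, 17q and 20q, 35.6 peaks per Mb), the ratio ran from 0.252 for 4q to 1.33 for 17p.

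The other arm of the same chromosome was compared next. The density on 4q was 0.259 times that on 4p (0.241 to 0.279), where there were 34.5 peaks per Mb. The short arm holds a dense cluster, and without its densest 200 kb, which contains 89 of its 1621 peaks, the ratio was 0.273. On chromosome 16, the long arm had 0.545 times the density of the short arm (0.498 to 0.597), which held 33.9 peaks per Mb. On chromosome 8 the densities of 8p and 8q (17.1 peaks per Mb) were not distinguishable, with a ratio of 1.07 and an interval of 0.977 to 1.16 that includes 1, although 8q is counted among the often-gained arms. On chromosome 17 the short arm was the denser one, with a ratio of 1.18 (1.10 to 1.28) to the 39.98 peaks per Mb of 17q. In windows of 1 Mb the variance of the peak number was 4.18 times its mean on 17p and 6.68 times on 17q. An interval that treats peaks as independent is therefore too narrow, and this small difference is uncertain. The intervals of the other often-lost arms are too narrow as well, since the variance there was 5.41 (4q) to 21.98 (13q) times the mean. Chromosome 13 is acrocentric, and its short arm was not among the arms compared.

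The local input background was recovered at each summit from the pileup and the fold enrichment. In this peak caller the background is the highest of several input levels, and it can never fall below a genome-wide floor of 0.763 reads, which equals 47.4 input reads in 10000 bp. A peak at the floor therefore had at most that much input around it, and lower levels cannot be seen. The background is known only at listed summits, and a summit over more input needs more ChIP reads to be listed. Over the whole list, 51.8% of the peaks had a background above the floor. The share was 35.8% on 4q (33.1 to 38.6), 37.9% on 8p (34.4 to 41.5), 42.3% on 16q (38.9 to 45.8) and 47.1% on 13q (44.3 to 50.05), all below that level. On 17p it was 66.8% (63.8 to 69.8), the second highest of the 39 arms. The 34 other arms ranged from 30.5% to 84.6% with a median of 48.1%, so the 13q share lay near their middle.

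**Figure D2:**
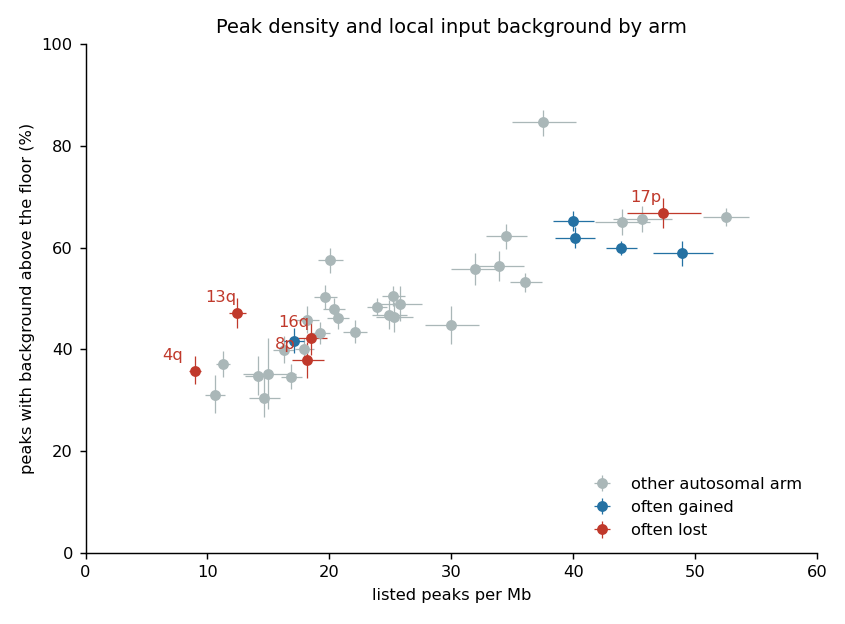
Each point is 1 autosomal arm, with listed peaks per Mb on the horizontal axis and the percentage of its peaks with a background above the floor on the vertical axis, and lines give exact 95% intervals. The arms 4q and 8p lie low on both axes and 17p lies high on both, while 13q has a share of 47.1% at only 12.5 peaks per Mb.

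Across the 39 arms, denser arms also had a higher share of peaks above the floor (Spearman's rho 0.90, a description over arms that share both libraries, with both values taken from the same peaks). Among arms of like density, 13q had a higher share taken over the whole arm. At 11.3 peaks per Mb 5q had 37.0% and at 10.6 peaks per Mb 18q had 31.1%, against 47.1% on 13q. Both 13q values average over unlike stretches, described below. Its last stretch held 64.8% of its peaks, at 30.3 peaks per Mb and with 57.0% above the floor. In its first and middle stretches the share was 30.3% and 24.4%, so the higher share was not a trait of the whole arm.

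What set the background differed between the arms as well. A background equal to a whole number of input reads was read as input lying over the summit itself, and it was found at 18.8% of the peaks on 4q, 21.4% on 8p, 23.5% on 13q, 19.1% on 16q and 24.7% on 17p. A second class of steps could come from either the window of 1000 bp or the one of 10000 bp. The last class could come only from the window of 10000 bp, which has to hold at least 48 input reads. It thus reports input depth over a wider stretch around listed summits, and not the input depth of an arm as a whole. It made up 3.69% of the peaks on 4q, 5.13% on 8p, 9.12% on 13q, 9.37% on 16q and 23.1% on 17p, against 11.3% on the 34 other arms. The spread between 4q and 17p was thus wider for the regional class than for input over the summit.

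**Figure D3:**
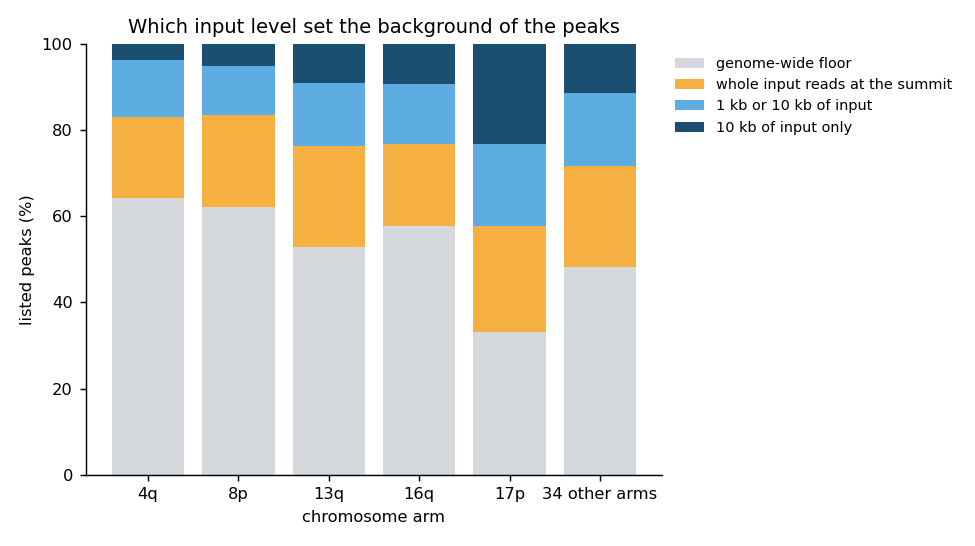
Stacked bars give the percentage of listed peaks on each arm whose background came from the genome-wide floor, from whole input reads at the summit, from 1 kb or 10 kb of input, or from 10 kb of input only. The floor class takes 64.2% of the peaks on 4q and 33.2% on 17p, and the class of 10 kb only takes 3.69% and 23.1%.

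The number of ChIP reads at the summit was low on every arm. The median was 4 reads on 4q, 8p and 16q and 5 reads on 13q and 17p. Peaks of 3 reads, the fewest listed, made up 11.8% of the list on 4q, 14.5% on 8p, 8.53% on 13q, 12.3% on 16q and 5.96% on 17p, against 9.11% on the 34 other arms. Such peaks pass the p cutoff only over a low background, and the highest background under any of the 5885 peaks of 3 reads in the table was 0.805. Peaks with at least 7 reads made up 16.4% on 17p and between 5.26% (8p) and 9.80% (13q) on the other 4 arms, against 12.9% on the 34 arms compared. The share at the minimum length of 161 bp was 47.7% on 4q, 43.2% on 16q, 42.5% on 8p, 39.9% on 13q and 34.4% on 17p, against 36.9%. The densest arm thus had the most reads per peak, with a mean of 5.27, while the means on 4q, 8p and 16q were close together at 4.66, 4.62 and 4.63. The part of the caller's floor in this was not tested.

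Fold enrichment did not separate the arms. A fold of at least 3 was reached by 31.9% of all listed peaks and by 1540 of the 4920 peaks here (31.3%). By arm the share was 33.7% on 4q, 30% on 8p, 31.97% on 13q, 28.7% on 16q and 30.6% on 17p, all close to the background of the list.

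Few peaks on these arms were strong. A q under 1 was given to 0.346% of all listed peaks and to 5 of the 4920 (0.102%), against 157 on the 34 other arms (0.277%). Of the 157, however, 32 lay on 4p, 18 on 7p and 15 on 1q. Some other arms had as few as the often-lost ones, with 0 of 1545 peaks on 10q, 1 of 1461 on 5q and 1 of 1346 on 9q. A low share was thus not particular to the often-lost arms. The q of the 5 peaks on the often-lost arms lay between 0.0784 and 0.735. None of them reached 0.05, which 57 of all listed peaks did. The strongest on 16q, at chr16:84067820-84068081, had 10 reads (4.795 to 18.4) over a background of 0.805 and a fold enrichment of 5.34, the highest fold on any of the 5 arms. On 8p the strongest, at chr8:2329252-2329465, had 23 reads (14.6 to 34.5) over 5 input reads at the summit and a fold of 3.48. The strongest on 4q, at chr4:190643328-190643905 near the end of the arm, had 17 reads (9.90 to 27.2) over a background of 3.06 and a fold of 3.87. On 13q the strongest, at chr13:114603217-114603431, had 11 reads (5.49 to 19.7) over 1.29 and a fold of 4.59, and the other peak with a q under 1 lay at chr13:112159851-112160040 with 10 reads. The densest arm, 17p, had no peak with a q under 1. Its strongest peak, at chr17:18937314-18937751, had 12 reads (6.20 to 20.96) over 2 input reads and a fold of 3.79.

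Along the arms the peaks were spread unevenly, and of the 5 arms most of all on 13q. In windows of 1 Mb the variance of the peak number was 21.98 times its mean on 13q, 9.81 times on 8p, 8.31 times on 16q, 5.41 times on 4q and 4.18 times on 17p. The 34 other arms ranged from 1.97 to 22.8 times, the highest on 12p, with a median of 9.33 times. By this measure 13q was not alone at its level. For the same relative spread, however, the measure rises with the mean, and 13q had 12.5 peaks per Mb against 25.8 on 12p. On 13q, 11 of 94 such windows held no peak, on 16q 1 of 43, and on the other 3 arms none. Of the 2263 windows of the 34 other arms 2 held no peak, both on 5q.

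**Figure D4:**
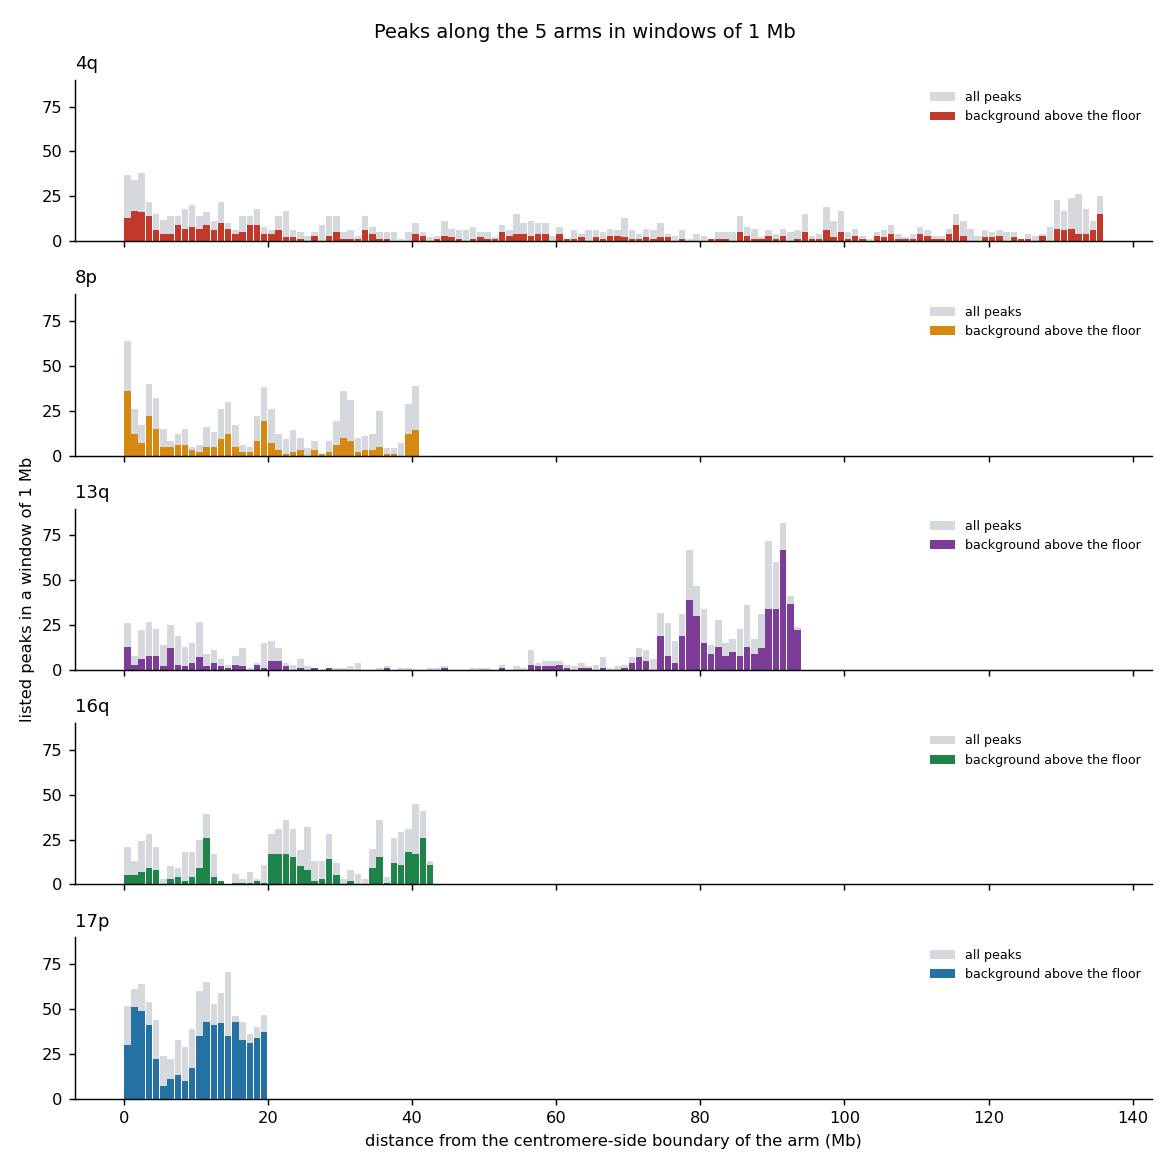
Each panel is 1 arm, with the distance from its centromere-side boundary in Mb on the horizontal axis and the number of listed peaks per window of 1 Mb on the vertical axis; the coloured part of a bar counts peaks with a background above the floor. On 13q a long stretch of few peaks, at most 11 per window, separates a moderately filled start from a dense end with up to 82 peaks in 1 window.

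The long arm of chromosome 13 fell into stretches with very different densities. The limits of these stretches were read off the counts in windows of 5 Mb and are a description only. From 21 to 45 Mb there were 323 peaks, or 13.5 per Mb (12.03 to 15.01). From 45 to 90 Mb there were 90 peaks, or 2.00 per Mb (1.61 to 2.46). From 90 Mb to the last summit there were 760 peaks, or 30.3 per Mb (28.2 to 32.5), 15.1 times the density of the middle stretch (12.2 to 19.05). The middle stretch takes 47.8% of the length of the arm and holds 7.67% of its peaks. Its density was close to that of the whole of chromosome X in the same table, 1.85 per Mb (1.65 to 2.08). The stretch was picked for its few peaks and chromosome X was not, and the DNA content of neither was measured. On the 34 other autosomal arms, the sparsest of 182 runs of the same length, on 5q, held 269 peaks or 5.98 per Mb. Without this stretch, the ratio of 13q to the other autosomal arms was 0.890 (0.837 to 0.945) in place of 0.503. Since the stretch was picked for its few peaks and the other arms kept theirs, this ratio had to rise and is given as a description only.

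The share of peaks above the floor on 13q was higher in the last stretch than in the first and the middle. The share of peaks above the floor was 30.3% (25.4 to 35.7) in the first, 24.4% (15.997 to 34.6) in the middle and 57.0% (53.4 to 60.5) in the last. The first 2 intervals overlap, and the density of peaks was 6.73 times higher in the first stretch than in the middle. At the floor were 69.7% of the peaks in the first stretch and 75.6% in the middle. Lower input cannot be seen there, so this share cannot tell whether input differed between these 2 stretches. The class that needs a dense window of 10000 bp of input was found at 106 of 760 peaks in the last stretch (13.9%), at 1 of 323 in the first, and at 0 of 90 in the middle, which allows a share of up to 3.33% when 3 counts are taken as the limit of a count of 0. The mean number of ChIP reads per peak was 4.495 in the first, 4.56 in the middle and 5.12 in the last stretch. At the telomeric end, the window from 110 to 115 Mb held 279 peaks, of which 69.5% were above the floor, and the window from 60 to 65 Mb held 3, none of them above it. These are 93.0 times apart, the widest range of any of the 5 arms.

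On 4q the sparse part was longer and less extreme. From the boundary to 75 Mb there were 17.7 peaks per Mb (15.9 to 19.7), from 75 to 185 Mb there were 6.70 (6.22 to 7.20), and from 185 Mb to the end 20.4 (16.9 to 24.3). The middle stretch takes 80.7% of the arm and holds 60.4% of its peaks. Above the floor were 47.2% of the peaks in the first stretch, 29.7% in the middle and 39.02% in the last. Of 27 windows of 5 Mb on 4q, 26 had fewer peaks than the median window of the other arms (96 peaks). The fullest, from 55 to 60 Mb, held 136 peaks and the emptiest, from 130 to 135 Mb, held 16, of which 1 was above the floor. Unlike 13q, no window of 1 Mb on 4q was without a peak.

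The remaining arms had shorter sparse stretches. On 16q, the window from 60 to 65 Mb held 18 peaks, while the median of its 8 windows was 108 and the fullest, from 85 to 90 Mb, held 153. On 8p, the 7 windows ranged from 9 peaks per Mb between 15 and 20 Mb, with 17.8% of the peaks above the floor, to 23.8 per Mb between 35 and 40 Mb, with 48.7% above it. On 17p, the 3 whole windows held 300 peaks from 5 to 10 Mb, 271 from 15 to 20 Mb and 157 from 10 to 15 Mb, where the share above the floor was 39.5%. Even this sparsest window of 17p was above the median of 96 peaks in the 417 windows of the other arms. Only 1 of those 417 windows held 10 peaks or fewer, against 6 of 18 on 13q and none on 4q, 8p, 16q or 17p.

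Gaps were measured as the distance between neighbouring summits inside an arm. On 13q, 32 gaps of at least 500 kb covered 39.6% of the arm, on 4q 35 covered 17.6%, on 16q 7 covered 12.3% and on 8p 5 covered 7.83%. No such gap was found on 17p. The 34 other arms had a median of 3.29% of their length in such gaps, 12 of them had none, and the highest share was 23.4% on 18q. Gaps of at least 1 Mb numbered 15 on 13q, 3 on 4q and 1 on 16q, and none were found on 8p and 17p. The 34 other arms together also had 15.

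The longest gap on 13q lay between the summits at 65884264 and 69364851 and was 3.48 Mb long, the longest on any autosomal arm. The second, from 60484810 to 63304194, was 2.82 Mb. The longest on the 34 other arms was 1.68 Mb, on 6p. On 16q the longest gap, from 59930279 to 61573823, was 1.64 Mb and the second, from 76203237 to 77038802, was 836 kb. On 4q they ran from 115377795 to 116556029 (1.18 Mb) and from 178796195 to 179965402 (1.17 Mb). On 8p they ran from 13982873 to 14914509 (932 kb) and from 4435258 to 5164220 (729 kb). On 17p the longest gaps were much shorter, 187 kb from 14739210 to 14925892 and 164 kb from 13788535 to 13952103, both in the sparser window of that arm. The summits next to these 10 gaps had between 3 and 6 reads.

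A sparse arm has longer gaps for its density alone, so the lengths were also set against the mean spacing of each arm. The mean spacing was 112 kb on 4q, 80.2 kb on 13q, 55.0 kb on 8p, 54.1 kb on 16q and 21.1 kb on 17p. The longest gap was 43.4 times the mean spacing on 13q and 30.4 times on 16q, but only 10.5 times on 4q and 8.84 times on 17p, with 16.9 times on 8p. The 34 other arms ranged from 8.41 to 67.3 times with a median of 14.6. By this measure 13q and 16q came next after 6p among the 39 arms. Relative to the mean spacing of the whole arm, the longest gap of 4q was below the median of the other arms. Those of 13q and 16q were long by this measure. On 13q, however, the longest gap lay in the sparse stretch from 45 to 90 Mb, where the mean spacing was 500 kb. The longest gap of 16q lay mostly in the window from 60 to 65 Mb, which held only 18 peaks. The 43.4 times on 13q and the 30.4 times on 16q are thus not set against the local spacing. Gaps were not compared between arms by local spacing. Sequence that reads cannot be placed on would leave gaps too, and no map of it was used here.

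**Figure D5:**
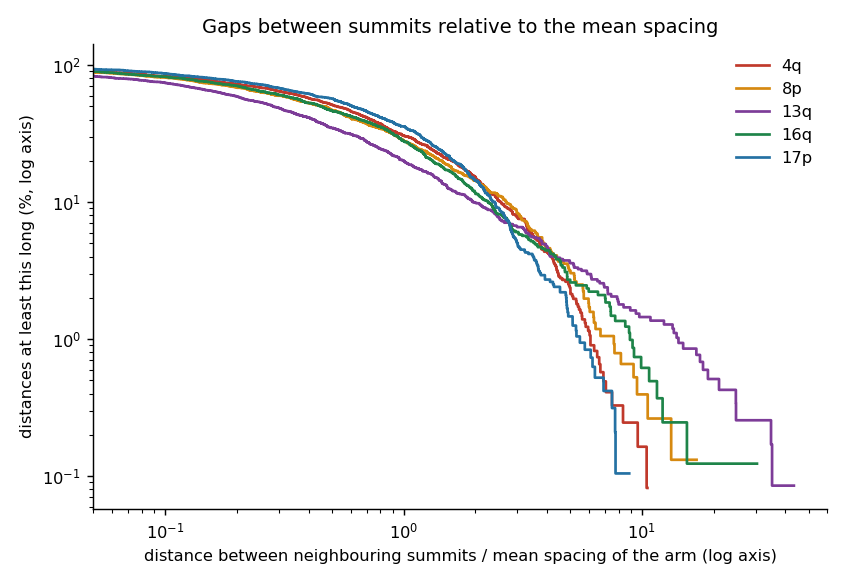
Lines give, for each arm, the percentage of distances between neighbouring summits that were at least as long as the value on the horizontal axis, which is the distance divided by the mean spacing of the arm (both axes logarithmic). The 13q line reaches farthest to the right, to 43.4 times the mean spacing, and the 17p line ends at 8.84 times.

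The telomeric ends were denser than the rest on 4 of the 5 arms, and on 24 of the 34 other arms as well. In the outermost 3 Mb there were 46.3 peaks per Mb on 13q against 11.3 over the rest of the arm, 33.7 against 16.99 on 8p, 28.7 against 17.7 on 16q and 19 against 8.72 on 4q. On 17p the outermost 3 Mb were slightly less dense, at 43.0 against 48.1 peaks per Mb, although 85.3% of the peaks there were above the floor against 64.0% over the rest. On 13q the corresponding shares were 88.5% and 41.6%. The 3 Mb next to the centromere-side boundary were denser still on 4q (36.3 peaks per Mb), 8p (35.7) and 17p (59 per Mb), and held 18.7 per Mb on 13q and 19.3 on 16q.

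The peaks on both sides of each boundary of the rule were ordinary ones. The nearest summit inside lay 25.4 kb from the boundary on 4q (3 reads), 7.86 kb on 8p (5 reads), 5.79 kb on 13q (5 reads), 64.0 kb on 16q (4 reads) and 14.1 kb on 17p (4 reads). The nearest outside lay 5.02 kb away on 4q (6 reads), 43.9 kb on 8p (3 reads), 82.7 kb on 13q (4 reads) and 4.44 kb on 17p (6 reads). On 16q the nearest outside had 4 reads and was 11207 kb away, on the short arm.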

How the data were processed

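One ChIP library and 1 input library of Hep3B cells were used. The submitters' processing notes name CASAVA 1.4, Bowtie2 2.0, Picard 2.19.0, MACS2 2.1.2 and hg19. Per the file headers, MACS kept 1 tag per position, extended tags of 145 bp to 161 bp, and used a p cutoff of 0.05 and an effective genome size of 1870000000 bp, the preset for mouse, which raises the floor of the background. The deposited pileup is a signal, the ChIP reads at the summit times 0.864. The deposited fold enrichment is a ratio with a pseudocount of 1 on both terms. The deposited −log10 p-values and q-values are those of the authors' MACS run; the header says that q is not calculated, yet the column holds values.

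Reads were the pileup divided by 0.864, which lay within 0.00574 of a whole number at every peak. The background was solved from reads and fold, and a Poisson −log10 p recomputed from these was never more than 5.26e-05 away from the deposited one. Peaks were assigned to arms by summit. Arm boundaries of the comparison arms were set about 2 Mb outside the centromere gaps and rounded to whole Mb. Intervals were exact Poisson, binomial or conditional binomial (95%). The binomial and conditional binomial ones were checked on simulated independent counts, so the check does not cover peaks that cluster. No p-value was computed for any comparison between arms. The arms, and the limits of the stretches on 13q and 4q, were chosen with earlier results of these data known. Sites were named by a fixed rule: the strongest peak and 2 longest gaps of each arm, the windows of 5 Mb with most and fewest peaks, and peaks with a q under 1. Genes, promoters and sequences at the peaks were not analysed, for want of a genome and gene models on the same build. The alternatives were stricter lists, arm ends left out, close summits counted once, medians of windows and other gap lengths. Python 3.11.15, numpy 2.4.6, pandas 2.3.3, scipy 1.17.1 and matplotlib 3.10.9 were used.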

Additional observations from a re-analysis of the deposited data

How the results depend on the processing

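None of the values has a replicate. An alternative was therefore counted as a move when it left the 95% interval of the reported value, which is too narrow where peaks cluster. For the share of an arm in gaps, a change of more than 1.5 times was counted as a move. Of 68 alternatives, 31 stayed within this limit, 36 moved and 1 turned the direction. For some of them the direction of the shift was fixed beforehand. Dropping backgrounds of whole input reads removes only peaks above the floor. A shorter gap cutoff can only raise the share in gaps and a longer one can only lower it, and fewer peaks leave longer gaps. The tally is thus not a measure of how robust the results are. Those on 4q over 4p and those that leave out the sparse stretch of 13q or 4q were chosen after seeing the data. The ratio to the other autosomal arms kept its side of 1 on every arm under all alternatives but one. Among peaks with a −log10 q above 0 it was 0.107 on 4q, 0.348 on 8p, 0.309 on 13q and 0.332 on 16q. On 17p it was 0, the reversal, but these values rest on 5 peaks in all. Their intervals included 1 on 8p (0.00876 to 1.97), 13q (0.0371 to 1.14), 16q (0.00834 to 1.87) and 17p (0 to 2.69). On these arms such peaks do not settle the side of 1. With a fold of at least 3 the ratio was 0.382 on 4q and 0.674 on 16q. Without the 3 Mb at each arm end it was 0.334 on 4q, 0.638 on 8p and 0.459 on 13q. By the median of windows of 1 Mb it was 0.316 on 4q, 0.263 on 13q, 0.947 on 16q and 2.45 on 17p. Leaving out the sparse stretch, from 45 to 90 Mb on 13q and from 75 to 185 Mb on 4q, gave 0.890 and 0.740, a rise that the choice of the stretch fixes. Counting summits under 1 kb apart once moved none of the ratios or shares.

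With at least 5 reads at the summit, the share above the floor was 51.1% on 4q, 54.0% on 8p, 63.6% on 13q, 59.3% on 16q and 78.5% on 17p, against 67.6% on the 34 other arms. Without backgrounds of whole input reads it was 20.99% on 4q, 20.9% on 8p, 30.9% on 13q, 28.7% on 16q and 55.97% on 17p, against 37.0% on the others. On each arm but 17p the share stayed below that of the other arms under both. Without the arm ends it was 41.7% on 13q and 61.4% on 17p, so the dense end of 13q carries part of its share. The length in gaps of at least 250 kb was 47.4% on 4q, 25.6% on 8p and 29.1% on 16q, and in gaps of at least 1 Mb it was 2.51%, 0% and 3.75%. Among peaks of at least 5 reads, gaps of at least 500 kb took 48.6% of 4q, 31.4% of 8p and 34.5% of 16q. On 13q the share in gaps kept within 1.5 times under every alternative, and on 17p it stayed at 0%. The order of 13q and 4q by the share in gaps held under each of these alternatives. The cause of the moves was not tested beyond what each alternative removes. No paired analysis was possible because there was only 1 ChIP library and 1 input library. At 3 to 6 reads in most peaks, single peaks and gap edges are imprecise.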
